A study of Homo sapiens with 16 samples.

Results

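The CDK inhibitors and D-type cyclins examined here were CDKN2A, CDKN2B, CDKN2C and CDKN2D (the INK4 inhibitors), CDKN1B and CDKN1C (2 of the CIP/KIP inhibitors), and CCND1, CCND2 and CCND3 (the D-type cyclins). The members were chosen as every probe set whose platform annotation gives one of these symbols alone. A probe set is a group of short oligonucleotides on the array that reads 1 transcript or part of it. This gave 21 probe sets of 8 genes, of 54675 probe sets and 19775 named genes on the array, and CDKN2C was not analysed here. Where a single probe set stands for a gene, it is the one with the highest mean log2 signal whose ID does not end in _x_at, an ending that marks probes which may also read other sequences.

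RNA had been taken from HCT116 and RKO cells, both established human colon cancer lines. Each line was left untreated (control) or treated for 3 days with the PARP inhibitor PJ-34, 5-aza-dC (decitabine), which blocks DNA methyltransferases, or the histone deacetylase inhibitor trichostatin A (TSA). Each pair of drugs and all 3 drugs together were the remaining conditions, which made 8 conditions and 8 arrays per line and 16 arrays in all. The methods give 0.5 µM 5-aza-dC and 0.15 µM TSA in both lines, with PJ-34 at 3 µM in HCT116 and 2 µM in RKO, while another passage of the study gives RKO the HCT116 dose. Every condition was 1 array, so no condition had a replicate. Each drug effect compared the 4 arrays with the drug with the 4 without it, within a line. The p-values therefore measure the scatter of single arrays around 3 drug terms that add up, and nothing in the labels says whether arrays of a line came from separate cultures.

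Values are the deposited linear signal intensities, scaled by the authors to an equal trimmed mean, which lay between 1000.1 and 1000.2. Between 21.9% and 27.3% of all probe sets had a signal under 50. Of 10 colon epithelium markers measured, EPCAM and KRT18 were at 500 or more on all RKO arrays while KRT19 was under 100 on all of them. In RKO, KRT18 read 14319 to 16263, KRT8 270 to 520 and CDH1 3.9 to 117. On all HCT116 arrays, EPCAM, CDH1, KRT8, KRT18 and KRT19 were at 500 or more. CDX2, VIL1, CDH17 and LGALS4 stayed under 500 on all arrays of both lines. The summed signal of the 10 markers was 169860 to 258890 in HCT116 and 19407 to 21401 in RKO. That of 7 fibroblast markers was 1170.2 to 4348 in HCT116 and 389 to 776 in RKO, and that of 4 blood cell markers 256 to 555 and 223 to 551. The part of these differences in the line results below was not tested. The labels of RKO PJ-34 and RKO PJ-34/5-aza-dC are doubtful. The median log2 signal of 16 cancer-testis antigen genes, which are kept silent by DNA methylation in most tissues, was 8.17 on the array labelled RKO PJ-34 and 5.64 on that labelled RKO PJ-34/5-aza-dC. It was 5.64 in the RKO control and 6.85 to 7.38 on the other RKO arrays with 5-aza-dC. Signals under 50 were set to 50 for this median, and 5.64 is that floor itself. Of the 16 genes, 9 were under 50 in the RKO control and 10 on the array labelled RKO PJ-34/5-aza-dC. All arrays are called by their labels below, and the RKO estimates and line differences of members are given with all arrays and then without these 2. The doubt rests on genes that respond to 5-aza-dC, and CDKN2A itself shows the same order of arrays. A 5-aza-dC effect without these 2 arrays is therefore not independent of the choice to leave them out. Where it passed without them but not with all arrays, as for CDKN2A, it is given as a description with no p-value.

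D-type cyclins bind and activate CDK4 and CDK6, which phosphorylate the retinoblastoma protein and release E2F transcription factors, and the cell then passes from G1 into S phase. INK4 inhibitors bind CDK4 and CDK6 and keep cyclin D from them, whereas CIP/KIP inhibitors bind cyclin-CDK complexes, above all those of CDK2. CDKN2A is among the genes most often silenced by promoter methylation in colon cancer, and RKO is a much-used line with a methylated CDKN2A promoter. Methylation was not measured on these arrays.

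CDKN2A lies on chromosome 9 at chr9:21967752-21995324 on the minus strand (GRCh38.p14, RefSeq). It has a pair of first exons under separate promoters: the upstream start gives the mRNA of ARF, which stabilises p53, and the downstream start that of the INK4 inhibitor p16. CDKN2B lies 7.579 kb away. The promoter windows of these genes are shown because CDKN2A is the silenced gene of RKO in this group and CDKN2B its neighbour. Each runs from 250 bases before to 50 bases after a transcription start, 5′ to 3′ on the strand of the gene, and capitals mark every CG, the dinucleotide that carries DNA methylation.
CDKN2A upstream start, chr9:21995275-21995574, minus strand: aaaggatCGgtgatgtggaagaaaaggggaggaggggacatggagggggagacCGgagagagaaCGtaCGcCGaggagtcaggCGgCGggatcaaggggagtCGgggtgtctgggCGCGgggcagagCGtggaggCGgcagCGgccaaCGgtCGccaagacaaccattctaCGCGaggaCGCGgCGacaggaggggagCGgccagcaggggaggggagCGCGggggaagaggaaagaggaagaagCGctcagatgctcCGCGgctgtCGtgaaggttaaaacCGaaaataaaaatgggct
CDKN2A downstream start, chr9:21974808-21975107, minus strand: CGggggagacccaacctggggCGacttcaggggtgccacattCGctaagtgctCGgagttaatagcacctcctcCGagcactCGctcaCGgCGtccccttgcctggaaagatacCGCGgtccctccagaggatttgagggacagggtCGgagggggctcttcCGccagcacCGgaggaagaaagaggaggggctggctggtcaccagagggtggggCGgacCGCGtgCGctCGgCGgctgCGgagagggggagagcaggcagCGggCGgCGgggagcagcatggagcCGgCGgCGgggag
CDKN2B, chr9:22009256-22009555, minus strand: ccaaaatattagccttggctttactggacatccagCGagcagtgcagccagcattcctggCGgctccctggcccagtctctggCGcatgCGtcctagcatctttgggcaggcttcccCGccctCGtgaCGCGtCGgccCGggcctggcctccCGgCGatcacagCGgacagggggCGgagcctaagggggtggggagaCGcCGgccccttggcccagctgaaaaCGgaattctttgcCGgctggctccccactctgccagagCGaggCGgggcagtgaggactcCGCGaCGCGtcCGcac
The upstream CDKN2A window held 28 CG, the downstream window 26 and the CDKN2B window 25. The median of all 35116 promoter windows of this length was 14 CG. As many CG as in these windows or more stood in 26.2%, 30.1% and 32.0% of them, all 3 being above the median. The starts of CDKN2A are 20.467 kb apart. Windows of CDKN1B (29 CG) and CDKN2D (36 CG) and 2 of CCND3 (29 and 37 CG) also held more CG than the median, and the other CCND3 window held 3. The files do not say which CDKN2A start a probe set reads.

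CDKN2A was near the detection floor in control RKO and bright in all HCT116 arrays. On probe set 207039_at, the RKO signal was 58.1 in the control, 479 on the array labelled PJ-34, 412 with 5-aza-dC, 21.9 with TSA, 104 on the array labelled PJ-34/5-aza-dC, 108 with PJ-34/TSA, 512 with 5-aza-dC/TSA and 372 with all 3 drugs. On probe set 209644_x_at, in the same order, the RKO signal was 47.9, 2180.1, 1427, 268, 142, 49.1, 1776 and 1318. The array labelled PJ-34 thus lay within the range of the 3 undisputed 5-aza-dC arrays on 207039_at and above them on 209644_x_at, and the array labelled PJ-34/5-aza-dC lay below them on both. The third probe set, 211156_at, stayed at 18.1 to 68.6 in RKO and 18.4 to 168 in HCT116 and was not tested.

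With the labels as given, 5-aza-dC arrays and the others overlapped in RKO. The log2 difference was 1.44 (SE 0.70, n = 4 against 4, adjusted p = 0.882) for 207039_at and 2.09 (SE 1.09, adjusted p = 0.882) for 209644_x_at. Without the 2 doubtful arrays, the 3 arrays with 5-aza-dC no longer overlapped the 3 without it. The log2 difference was then 2.66 (SE 0.47) on 207039_at and 4.10 (SE 0.38) on 209644_x_at. With only the array labelled PJ-34 left out it was 3.90 on 209644_x_at. Since the CDKN2A values of the arrays left out differ from their labels in the same way, these estimates are no evidence of a 5-aza-dC effect beyond the signals of the single arrays.

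Relative to the RKO control, 209644_x_at was 29.8-fold with 5-aza-dC, 37.0-fold with 5-aza-dC/TSA, 27.5-fold with all 3 drugs and 45.5-fold on the array labelled PJ-34. It was 5.58-fold with TSA and 1.02-fold with PJ-34/TSA. The control signal of 209644_x_at, 47.9, was itself under the floor of 50, and whether this probe set reads CDKN2A alone was not tested. The rise was smaller on 207039_at, from 58.1 to 412 with 5-aza-dC, 512 with 5-aza-dC/TSA and 372 with all 3 drugs. The study took a gene as reactivated when a control signal under 50 rose at least 5-fold to 50 or more. For its counts with drug pairs it also asked for a present or marginal detection flag, which was not applied here. By the signal rule alone, 209644_x_at passed in RKO with 5-aza-dC, with TSA, with 5-aza-dC/TSA, with all 3 drugs and on the array labelled PJ-34. It did not pass with PJ-34/TSA or on the array labelled PJ-34/5-aza-dC, which was at 2.97-fold. The study itself reported no candidate tumor suppressor among the genes that all 3 single drugs reactivated, in either line. Whether the flag or the doubtful label plays a part in this difference was not tested. Probe set 207039_at could not pass on any array, because its control signal was 58.1. The TSA array was above the RKO control on 209644_x_at and below it on 207039_at. Neither the TSA nor the PJ-34 effect on CDKN2A in RKO passed the test on these probe sets (adjusted p at least 0.976 with all arrays and at least 0.436 without both doubtful ones).

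In HCT116, 207039_at read 1051 in the control, 796 with PJ-34, 822 with 5-aza-dC, 1059 with TSA, 714 with PJ-34/5-aza-dC, 1106 with PJ-34/TSA, 864 with 5-aza-dC/TSA and 1164 with all 3 drugs. The highest of these was on the array with all 3 drugs, and the arrays with and without each drug overlapped. No drug effect passed, the estimates being -0.18 (SE 0.18, adjusted p = 0.773) for 5-aza-dC, 0.32 (SE 0.18, adjusted p = 0.328) for TSA and -0.03 (SE 0.18, adjusted p = 0.996) for PJ-34. Every HCT116 array was above every RKO array on both probe sets. The line difference, HCT116 minus RKO over all conditions, was 2.36 (SE 0.36, n = 8 against 8, adjusted p = 5.26e-05) on 207039_at and 3.88 (SE 0.62, adjusted p = 8.01e-05) on 209644_x_at. Without both doubtful arrays, it was 2.54 (SE 0.27, adjusted p = 8.92e-07) and 4.43 (SE 0.20, adjusted p = 1.19e-11).

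**Figure D1:**
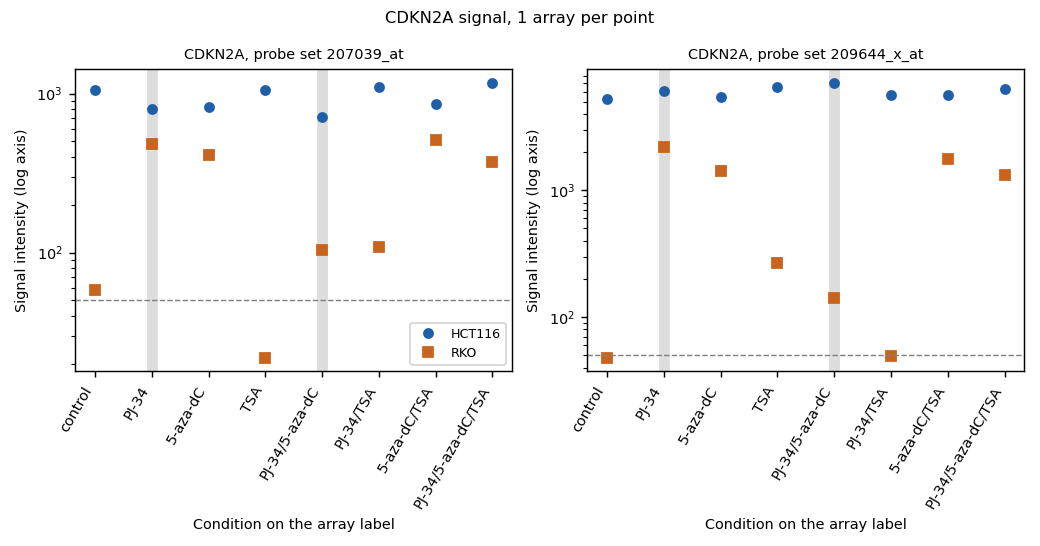
CDKN2A signal intensity (log axis) on each of the 16 arrays by labelled condition, for probe sets 207039_at (left) and 209644_x_at (right), with circles for HCT116 and squares for RKO. Grey bands mark the pair of labels that are doubtful in RKO and the dashed line the floor of 50; the RKO signals of 209644_x_at run from 47.9 to 2180.1, all below the HCT116 signals.

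The difference between the lines in the 5-aza-dC effect (HCT116 minus RKO) was -1.62 (SE 0.72, adjusted p = 0.653) and -2.03 (SE 1.23, adjusted p = 0.748) on these probe sets with all arrays. With both doubtful arrays left out, it was -2.77 (SE 0.43) and -4.26 (SE 0.32), under the same limit. A difference between the lines in the 5-aza-dC effect on CDKN2A was not shown with the labels as given.

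Over all 16 arrays, the 5 genes of 16527 whose log2 signal followed CDKN2A (207039_at) most closely were TPM2 (Pearson r = 0.965), MAGEB2 (r = 0.960), AKAP12 (r = 0.957), MTERF1 (r = 0.951) and ZNF274 (r = 0.948). These values describe the arrays, which share 2 lines and the same drugs. TPM2, a tropomyosin, read 6157 to 10939 in HCT116. In RKO it read 130.1 in the control, 2276 on the array labelled PJ-34, 1792 with 5-aza-dC, 77.3 with TSA, 193 on that labelled PJ-34/5-aza-dC, 44.0 with PJ-34/TSA, 1469.8 with 5-aza-dC/TSA and 1923 with all 3 drugs. The other genes were ordered alike, with the array labelled PJ-34 and the 3 undisputed 5-aza-dC arrays as the 4 highest in RKO. All 5 were chosen for their likeness to CDKN2A on these arrays, so the shared order is no separate evidence on the labels. MAGEB2, a cancer-testis antigen and among the genes behind the doubt on the labels, ran from 74.7 to 6123 in RKO.

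CDKN2B, which encodes the INK4 inhibitor p15, was not near the floor in either control, with 1050.05 in RKO and 809 in HCT116 on probe set 236313_at. RKO arrays without TSA read 549.8 on the array labelled PJ-34, 654 with 5-aza-dC and 764 on the array labelled PJ-34/5-aza-dC. RKO arrays with TSA read 1161 with TSA alone, 1170.1 with PJ-34/TSA, 1299 with 5-aza-dC/TSA and 1087 with all 3 drugs. In RKO the TSA arrays were thus the 4 highest, without overlap, but the difference of 0.68 (SE 0.19) did not pass (adjusted p = 0.194). On 207530_s_at, the second probe set, RKO also had its 4 highest signals on the TSA arrays (243 to 333 against 114 to 213), with a difference of 0.86 (SE 0.33, adjusted p = 0.328). When both doubtful arrays were dropped, the estimates were 0.57 on both probe sets (adjusted p = 0.503 on 236313_at and 0.783 on 207530_s_at).

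In HCT116, 236313_at read 961 with PJ-34, 543 with 5-aza-dC, 243 with TSA, 356 with PJ-34/5-aza-dC, 399 with PJ-34/TSA, 655 with 5-aza-dC/TSA and 264 with all 3 drugs. The TSA arrays lay toward the low end and overlapped the others, and the TSA estimate was -0.79 (SE 0.36, adjusted p = 0.198). It passed when the 5-aza-dC/TSA array was left out (-1.24, adjusted p = 0.0293). The TSA effect differed between the lines by -1.47 (SE 0.43, unadjusted p = 0.00376), which did not pass over all probe sets (adjusted p = 0.168) but did in 1 of 16 fits that left out 1 array, the one without the array labelled RKO PJ-34/5-aza-dC (-1.90, adjusted p = 0.0195). In the fit of the undisputed arrays, it was -1.30 (adjusted p = 0.258). Averaged over all conditions, CDKN2B was lower in HCT116 than in RKO, with a log2 difference of -0.97 on 236313_at (SE 0.21, adjusted p = 0.00151) and -1.24 on 207530_s_at (SE 0.31, adjusted p = 0.00393). Without both doubtful arrays, these were -1.06 (adjusted p = 0.000993) and -1.48 (adjusted p = 0.0191). HCT116 was the lower line in 7 of 8 conditions on each probe set. The exceptions were the PJ-34 label on 236313_at and the control on 207530_s_at. With TSA, 236313_at read 243 to 655 in HCT116 and 1087 to 1299 in RKO. Without TSA the lines overlapped, at 356 to 961 and 550 to 1050. On 207530_s_at, HCT116 read 31.9 with 5-aza-dC, 43.5 with TSA and 21.7 with PJ-34/TSA, all under the floor. For 5-aza-dC, 236313_at gave -0.29 (SE 0.36) in HCT116 and -0.04 (SE 0.19) in RKO, or -0.21 (SE 0.18) in RKO without both doubtful arrays.

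MTAP, which encodes a methionine salvage enzyme 26.637 kb from CDKN2A on its other side, was measured on all arrays. It was higher in HCT116 by 0.35 (SE 0.07, adjusted p = 0.000437) and gave -0.18 with 5-aza-dC in RKO, which did not pass. With both doubtful arrays left out, these were 0.38 and -0.26. CDKN2B-AS1, the antisense RNA of the locus, was too dim to be tested.

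CDKN2D, the INK4 inhibitor encoded on chromosome 19, was read by 210240_s_at. HCT116 arrays gave 449 in the control, 572 with PJ-34, 631 with 5-aza-dC, 416 with TSA, 495 with PJ-34/5-aza-dC, 266 with PJ-34/TSA, 470 with 5-aza-dC/TSA and 364 with all 3 drugs. RKO arrays ranged from 179 to 335 with a median of 221. The lines overlapped between 266 and 335, and the line difference of 0.91 (SE 0.21, adjusted p = 0.00218) did not pass without both doubtful arrays (0.79, adjusted p = 0.0505). The HCT116 signal was lower in 4 of 4 pairs of arrays that differ in TSA alone, but the TSA estimate of -0.52 (SE 0.25) did not pass (adjusted p = 0.221). The second probe set, 213586_at, was at 6.93 to 308 over all arrays and not tested.

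CDKN1C, which encodes the CIP/KIP inhibitor p57 and is expressed from the maternal allele at an imprinted locus of chromosome 11, responded to drugs in HCT116. On 213348_at, the HCT116 signal was 1986 in the control, 2149 with PJ-34, 2980.0 with 5-aza-dC and 4373 with PJ-34/5-aza-dC. It was 972 with TSA, 732 with PJ-34/TSA, 1530.5 with 5-aza-dC/TSA and 1295 with all 3 drugs. The 4 TSA arrays were all below the other 4, and within each set the 5-aza-dC arrays were the higher ones. TSA lowered the signal by 2.51-fold (log2 change -1.33, SE 0.16, adjusted p = 0.000604), and 4 of 4 pairs fell. The 3 other tested probe sets fell with TSA too, by 1.39 (213182_x_at, SE 0.34, adjusted p = 0.0215), 0.92 (216894_x_at, SE 0.27, adjusted p = 0.0462) and 0.91 (219534_x_at, SE 0.23, adjusted p = 0.0258) on the log2 scale. The IDs of these 3 end in _x_at, and whether they read CDKN1C alone was not tested. When 1 HCT116 array was left out, 213182_x_at passed in 4 of 8 fits (lost without the control, PJ-34, 5-aza-dC or triple array), 219534_x_at in 3 (without the TSA, PJ-34/5-aza-dC or triple array) and 216894_x_at in 1 (without the TSA array). The call of 216894_x_at was also lost with a floor of 100, quantile normalization or 1 fit of all 16 arrays, and that of 219534_x_at with quantile normalization. All 3 were lost without the filter or the variance trend. The call of 213348_at held in each of 8 fits that left out 1 HCT116 array (adjusted p at most 0.0079), but not without the variance trend (adjusted p = 0.0908) or without the filter on low signals (adjusted p = 0.0544).

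With 5-aza-dC, CDKN1C 213348_at rose by 0.77 in HCT116 (SE 0.16, adjusted p = 0.0475), again in 4 of 4 pairs. The call was marginal, since it was lost in 7 of 8 fits that left out 1 array, the exception being the TSA array (adjusted p from 0.00542 to 0.282). The other probe sets gave 0.98, 0.46 and 0.83 and did not pass. In RKO, 213348_at read 604 in the control, 681 on the array labelled PJ-34, 547 with 5-aza-dC, 535 with TSA, 479.5 on that labelled PJ-34/5-aza-dC, 359 with PJ-34/TSA, 595 with 5-aza-dC/TSA and 461 with all 3 drugs. The arrays with and without each drug overlapped there, with -0.26 (SE 0.22) for TSA and -0.03 (SE 0.22) for 5-aza-dC. When both doubtful arrays were dropped, these were -0.03 (SE 0.28) and 0.12 (SE 0.23). The difference between the lines in the TSA effect was -1.07 (SE 0.24, adjusted p = 0.0793) and in the 5-aza-dC effect 0.81 (SE 0.24, adjusted p = 0.511), or -0.97 (adjusted p = 0.225) and 0.61 (adjusted p = 0.522) without those arrays. A line-specific response of CDKN1C was therefore not shown.

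CDKN1C was higher in HCT116 than in RKO on all 4 tested probe sets, with a difference of 1.72 (SE 0.12, adjusted p = 1.24e-08) on 213348_at, where every HCT116 array exceeded every RKO array, and 0.87 to 0.97 on the others. In the fit of the undisputed arrays, 213348_at gave 1.67, 216894_x_at 0.92 and 219534_x_at 1.10, and the call of 213182_x_at was lost (0.64, adjusted p = 0.174). The fifth probe set, 219533_at, was at 5.15 to 115.0 and not tested. Of 5 neighbours of CDKN1C at the imprinted locus, 4 were tested. KCNQ1, a potassium channel gene, and PHLDA2, an imprinted growth regulator, were higher in HCT116 (by 0.77 and 0.65), and none of the 4 passed for a drug in either line.

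CDKN1B, which encodes the CIP/KIP inhibitor p27, passed for no drug in either line. Its only probe set, 209112_at, read 4592 in the HCT116 control, 4584 with PJ-34, 4101 with 5-aza-dC, 4144 with TSA, 4039 with PJ-34/5-aza-dC, 4856 with PJ-34/TSA, 4533 with 5-aza-dC/TSA and 3920.5 with all 3 drugs. In RKO it read 2715 in the control, 2394 on the array labelled PJ-34, 2282 with 5-aza-dC, 2871 with TSA, 3411 on that labelled PJ-34/5-aza-dC, 2541 with PJ-34/TSA, 2396 with 5-aza-dC/TSA and 1856 with all 3 drugs. No HCT116 array was as low as any RKO array, and the line difference was 0.78 (SE 0.10, adjusted p = 1.29e-05), or 0.90 (adjusted p = 1.67e-06) without both doubtful arrays. The 6 drug estimates in the lines lay between -0.16 and 0.01 with all arrays. Without both doubtful arrays, the RKO estimates were -0.32 (SE 0.11, adjusted p = 0.174) for 5-aza-dC, -0.27 (SE 0.13, adjusted p = 0.887) for PJ-34 and 0.08 (SE 0.13, adjusted p = 0.92) for TSA, and the 95% interval of the TSA effect in HCT116 was -0.23 to 0.25. p27 is regulated largely at the protein level, which arrays do not measure.

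CCND1, which encodes cyclin D1, rose with TSA in HCT116. On 208712_at the HCT116 arrays without TSA read 6255 in the control, 6895 with PJ-34, 9118 with 5-aza-dC and 9138 with PJ-34/5-aza-dC. The arrays with TSA read 11842 with TSA alone, 14278 with PJ-34/TSA, 13946 with 5-aza-dC/TSA and 15850.0 with all 3 drugs. The groups did not overlap. The rise was 1.80-fold (log2 0.84, SE 0.10, n = 4 against 4, adjusted p = 0.00051) and present in 4 of 4 pairs, and 208711_s_at gave 0.83 (SE 0.11, adjusted p = 0.00108). Both calls held in each of the 8 fits without 1 HCT116 array but not without the variance trend (adjusted p = 0.0963 and 0.103). Arrays with 5-aza-dC were also higher in 4 of 4 pairs, by 0.33 (SE 0.10), without passing (adjusted p = 0.211).

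In RKO the 208712_at signals were 1702 in the control, 2037 on the array labelled PJ-34, 1737 with 5-aza-dC, 1522 with TSA, 1725 on that labelled PJ-34/5-aza-dC, 1932 with PJ-34/TSA, 1531 with 5-aza-dC/TSA and 1693 with all 3 drugs. The arrays with and without TSA overlapped and the estimate was -0.11 (SE 0.12, 95% interval -0.36 to 0.14, adjusted p = 0.752), with the TSA array the lower one in 4 of 4 pairs. With both doubtful arrays left out, it was -0.17 (SE 0.15, adjusted p = 0.817). The TSA effect was larger in HCT116 by 0.96 on 208712_at (SE 0.14, adjusted p = 0.0127) and by 0.88 on 208711_s_at (SE 0.16, adjusted p = 0.0393). When both doubtful arrays were dropped, these were 0.94 (adjusted p = 0.0434) and 0.72 (adjusted p = 0.138), and with any 1 of the 16 arrays left out 208712_at passed in 6 of 16 fits and 208711_s_at in 3. CCND1 was 6.01-fold higher in HCT116 over all conditions on 208712_at (log2 2.59, SE 0.07, adjusted p = 1.13e-13) and higher by 1.52 (SE 0.08) on 208711_s_at, or by 2.60 and 1.61 without both doubtful arrays, with no overlap of the lines on either probe set.

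CCND2, which encodes cyclin D2, was bright in RKO and near the floor in HCT116. On 200953_s_at the RKO arrays read 7558 in the control, 10062 on the array labelled PJ-34, 8615 with 5-aza-dC, 8305 with TSA, 8441 on that labelled PJ-34/5-aza-dC, 8948 with PJ-34/TSA, 9899 with 5-aza-dC/TSA and 9608 with all 3 drugs. The HCT116 arrays read 79.5, 82.0, 34.1, 89.0, 35.2, 34.8, 103 and 64.1 in the same order. No drug brought the HCT116 signal above 103 on this probe set. The line difference was -7.02 (SE 0.14, adjusted p = 4.31e-15), or 130-fold with signals under 50 set to 50, and its size depends on that floor: 149-fold with a floor of 20 and 88.6-fold with 100. The other probe sets, 200951_s_at, 200952_s_at and 231259_s_at, gave -5.99, -3.19 and -2.03. The size also moved with the floor for 200951_s_at (125.6-fold with a floor of 20, 63.5-fold with 50 and 34.6-fold with 100) and for 200952_s_at (10.9-fold, 9.12-fold and 5.24-fold). In the fit of the undisputed arrays, the 4 differences lay between -7.18 and -2.58. The opposite of CCND1, CCND2 was thus lower in HCT116 on all 4 probe sets.

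In RKO, 200951_s_at read 2093 in the control, 3889 on the array labelled PJ-34, 3740.1 with 5-aza-dC, 3083 with TSA, 2753 on that labelled PJ-34/5-aza-dC, 3787 with PJ-34/TSA, 4705 with 5-aza-dC/TSA and 5154 with all 3 drugs. The control was the lowest array. With the labels as given the 5-aza-dC estimate was 0.35 (SE 0.17, adjusted p = 0.882). Without both doubtful arrays, it was 0.63 (SE 0.10), and the other 3 probe sets gave 0.28, 0.18 and 0.30 without passing. The value of 0.63 is a description under the same limit as CDKN2A, since the array labelled PJ-34 read above that labelled PJ-34/5-aza-dC here too. The TSA arrays gave 0.44 (SE 0.17, adjusted p = 0.323), or 0.45 (SE 0.13, adjusted p = 0.32) without both doubtful arrays.

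**Figure D2:**
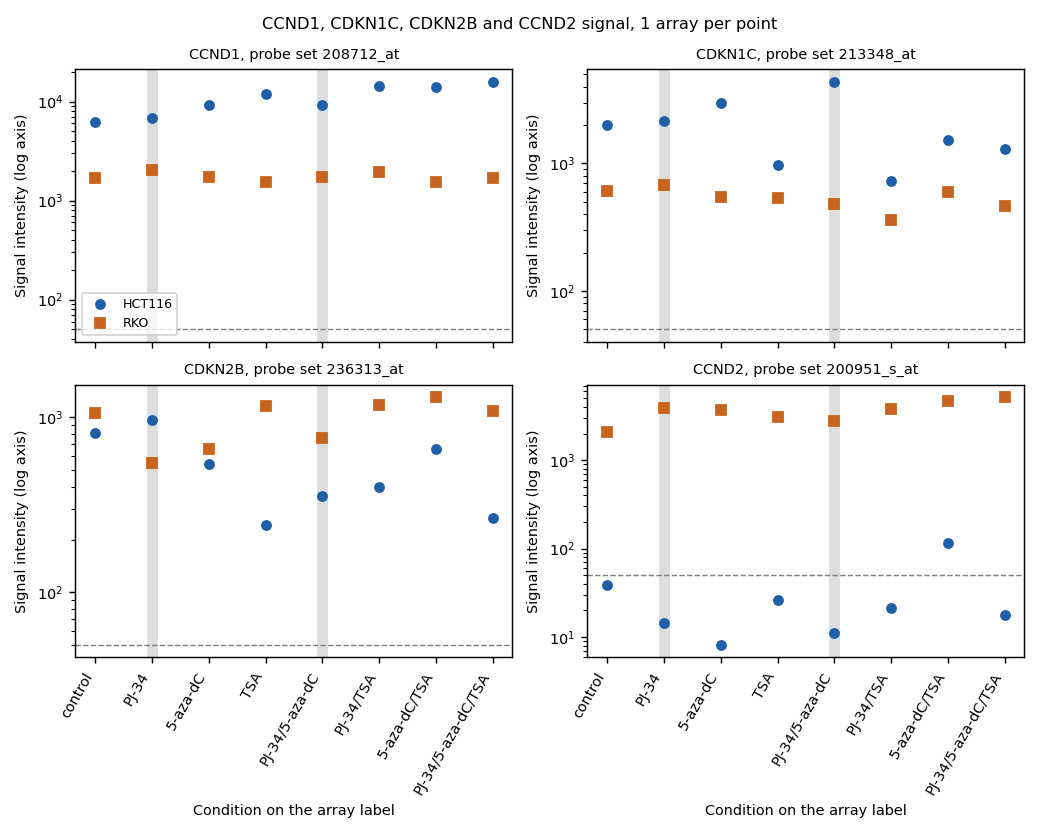
Signal intensity (log axis) of CCND1, CDKN1C, CDKN2B and CCND2 on the 16 arrays by labelled condition, with circles for HCT116, squares for RKO, grey bands at the labels that are doubtful in RKO and a dashed line at the floor of 50. In HCT116 the 4 TSA arrays are the highest for CCND1 and the lowest for CDKN1C, and CCND2 is low on all HCT116 arrays.

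CCND3, which encodes cyclin D3, was higher in RKO. On 201700_at the RKO arrays read 3779 in the control, 3692 on the array labelled PJ-34, 3401 with 5-aza-dC, 3446 with TSA, 3905 on that labelled PJ-34/5-aza-dC, 5028 with PJ-34/TSA, 4356 with 5-aza-dC/TSA and 4675 with all 3 drugs. The HCT116 arrays read 1310.5, 1634, 1811, 2295, 2631, 1968, 2213 and 2923 in the same order, with the control lowest. The lines did not overlap and the difference was -0.97 (SE 0.10, adjusted p = 8.82e-07), or -1.12 (adjusted p = 2.32e-06) without both doubtful arrays. The second probe set, 1562028_at, pointed the other way (0.92, SE 0.30, adjusted p = 0.0217) at signals of 13.5 to 249.7, and its call was lost without both doubtful arrays (adjusted p = 0.118), with a floor of 100 (0.44, adjusted p = 0.0619) and in 8 of 16 fits that left out 1 array. In HCT116, CCND3 201700_at gave 0.42 (SE 0.15, adjusted p = 0.324) with 5-aza-dC, 0.38 (SE 0.15, adjusted p = 0.141) with TSA and 0.26 (SE 0.15, adjusted p = 0.981) with PJ-34. The first passed without the TSA array (0.58, adjusted p = 0.022) and the second without the PJ-34/5-aza-dC array (0.49, adjusted p = 0.0448).

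Set against all probe sets, 18 of 18 tested member probe sets passed between the lines, 11 higher in HCT116 and 7 lower, where 43.8% of the 42119 probe sets tested passed. With both doubtful arrays left out, the count was 15 of 18, against 35.5%. CCND2 200951_s_at, 200952_s_at and 200953_s_at met the signal filter only through RKO, and CCND3 1562028_at only through HCT116. Their place in the count is therefore not independent of the line difference. The same filter was applied to all probe sets. The median difference was 0.88 over the member probe sets and -0.01 over all probe sets, on the log2 scale. Several member probe sets read the same gene, so this median does not describe a shift of the genes as a group. Averaged over the conditions, CDKN2A, CDKN2D, CDKN1B, CDKN1C and CCND1 were higher in HCT116, and CDKN2B, CCND2 and CCND3 (201700_at) were higher in RKO. In bulk RNA, less RNA per cell and fewer cells that hold it cannot be told apart. Line cannot be told apart from anything else that differed between the 2 sets of 8 arrays, such as the medium and the PJ-34 dose.

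**Figure D3:**
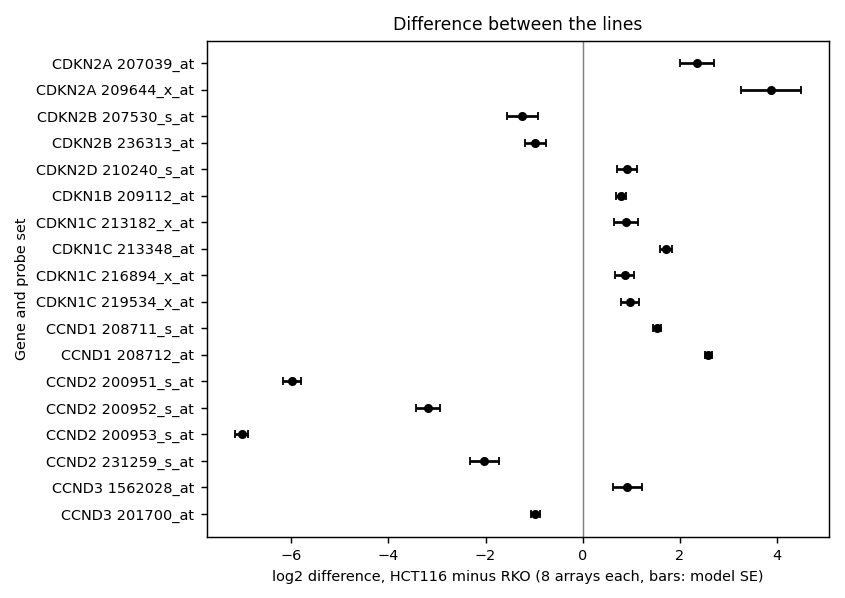
Log2 difference, HCT116 minus RKO, of the 18 tested member probe sets, with bars for the standard error of the model (8 arrays per line). CCND2 lies farthest to the left, at -7.02 on 200953_s_at, and CDKN2A 209644_x_at farthest to the right, at 3.88.

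For the drugs in HCT116, 6 of 15 tested member probe sets passed with TSA, against 8.99% of 35373 probe sets, and these were 2 of CCND1 and 4 of CDKN1C. With 5-aza-dC, 1 of 15 passed (CDKN1C), against 0.744%. With PJ-34, limma called 0 of 15 and 0% of all probe sets, and 0 members and 1323 probe sets had an unadjusted p under 0.05. In RKO, 0 of 17 tested members passed with 5-aza-dC (0% of 33862 probe sets, 1759 of them with an unadjusted p under 0.05), TSA (0.00591%, 4158 with an unadjusted p under 0.05) or PJ-34 (0%, 895 with an unadjusted p under 0.05). At an unadjusted p under 0.05 were 0, 4 and 0 members. When both doubtful arrays were dropped, 3 of 17 passed with 5-aza-dC, against 1.96%, of which 2 are the CDKN2A probe sets under the limit given above. With TSA (0.0161%) and PJ-34 (0%) 0 passed, and 3 and 2 members had an unadjusted p under 0.05, as had 2655 and 1749 of the 31057 probe sets tested.

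The effect of TSA differed between the lines for 2 of 18 members, both CCND1, against 0.283% of all probe sets, and for 1 without both doubtful arrays (0.291%). That of 5-aza-dC differed for 0 of 18 (0.0427%, 6 members with an unadjusted p under 0.05), and for 2, both CDKN2A and under the same limit, without those arrays (0.231%). That of PJ-34 differed for 0 of 18 members and for 0% of all probe sets, of which 0 members and 1468 probe sets had an unadjusted p under 0.05.

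**Figure D4:**
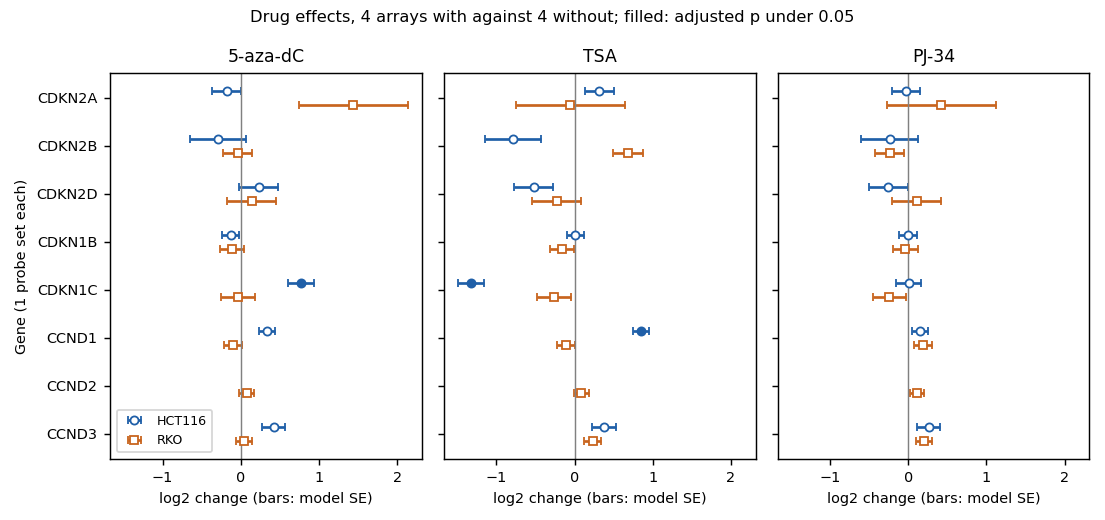
Log2 change with each drug for 1 probe set of each gene, circles for HCT116 and squares for RKO, with bars for the standard error of the model (4 arrays with the drug against 4 without, labels as given). Filled symbols passed at an adjusted p under 0.05: CDKN1C with 5-aza-dC (0.77) and TSA (-1.33) and CCND1 with TSA (0.84), all in HCT116. The CCND2 probe set shown was too dim to be tested in HCT116.

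Of 26 other genes of the G1 to S transition (CDK2, CDK4 and CDK6, cyclins E and A2, the RB family, E2F and DP factors, CDKN1A, and regulators of cyclin and inhibitor turnover), all were tested. With TSA in HCT116, 5 rose and 1 fell, where 8.99% of all probe sets passed in either direction. The median log2 change was 0.25 over the list and -0.07 over all probe sets. CDKN1A, the CIP/KIP inhibitor p21, rose by 0.98 (SE 0.11, adjusted p = 0.000497). E2F2 (0.95) and E2F3 (0.51), both activating E2F factors, and the cyclin D partners CDK6 (0.59) and CDK4 (0.41) rose as well, and RBL2, the RB family member p130, fell by 0.64. The count was 0 without the variance trend and 0 without the filter, and 1 to 11 when 1 HCT116 array was left out. No gene of the list passed for 5-aza-dC or PJ-34 in HCT116 or for any drug in RKO. In the fit of the undisputed arrays, the 5-aza-dC estimates in RKO were 0.58 for CDKN1A, -0.49 for SKP2 and -0.48 for CCNA2. SKP2 targets p27 for degradation, and CCNA2 encodes cyclin A2. These estimates passed without the 2 doubtful arrays but not with all arrays, and are descriptions under the same limit as CDKN2A. The array labelled PJ-34 read above that labelled PJ-34/5-aza-dC for CDKN1A (10033 against 5081). It read below it for SKP2 (1657 against 2691) and CCNA2 (3973 against 6471).

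Between the lines, 5 genes of the list were higher in HCT116 and 12 lower, where 43.8% of all probe sets passed. Without both doubtful arrays, 4 were higher and 10 lower, against 35.5%. The smallest p-values were those of CCNE2, or cyclin E2 (-1.50, SE 0.09), CDK6 (1.10, SE 0.10), CKS1B, a cofactor of SKP2 (0.68, SE 0.06), and E2F5, a repressive E2F factor (-1.13, SE 0.11). The lists of drug and line effects use the same arrays and were not compared with each other.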

How the data were processed

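Per the labels, each sample was 1 Affymetrix U133 Plus 2.0 array. The authors deposited linear signal intensities per probe set from GCOS, whose version is not given in the sources used here. All arrays had been scaled to 1 target. Detection calls were not used here. Arrays were grouped by their labels. Of the probe sets, 41097 carry a single gene symbol in the platform annotation, 1801 several and 11777 none, and 41043 of the first have a gene number in the GRCh38.p14 table, which also gave positions and promoters. The members and gene lists were chosen with earlier results of these data known.

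After 62 control probe sets were left out, a floor of 50 was applied before log2. Probe sets reaching 100 on 4 or more arrays of the fit were tested with limma 3.58.1 (R 4.3.3), with variances moderated along a trend on mean signal. Each line was fitted with a term per drug. Line differences came from 1 fit of both lines with drug, line by drug and drug by drug terms. P-values were adjusted by Benjamini-Hochberg over all probe sets tested, at 0.05. The fits were tested on simulated data. The number of arrays limits the precision. Alternatives were floors of 20 and 100, no filter, quantile normalization, no variance trend, 1 fit of all 16 arrays, other probe sets of a gene, and fits without single arrays or both doubtful arrays. All named genes are members or come from the lists, or are the 5 genes most like CDKN2A.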

Additional observations from a re-analysis of the deposited data

Results flagged for a closer look

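The effect of TSA on CCND1 differed between the lines by the test of the difference itself, by 0.88 on probe set 208711_s_at and by 0.96 on 208712_at (log2, HCT116 minus RKO). On 208712_at the 4 HCT116 arrays with TSA read 11842 to 15850.0 and the 4 without it 6255 to 9138, whereas the RKO arrays read 1522 to 1932 with TSA and 1702 to 2037 without it. The estimate stayed between 0.90 and 1.01 on 208712_at and between 0.73 and 0.99 on 208711_s_at when 1 array was left out, while the adjusted p ranged from 0.0028 to 0.0851 and from 0.00764 to 0.181.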

How the results depend on the processing

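Of 168 member results, 27 passed the test, and 14 of these kept direction and call in every alternative run for them. Of the 141 that did not pass, 10 passed in some alternative. Direction was judged only where a value passed, and 76 results that did not pass changed sign in some alternative without passing there either. The 1 member call for 5-aza-dC in HCT116 became 0 with a floor of 20, without the filter, with quantile normalization, without the variance trend and with 1 fit of all 16 arrays, and leaving out 1 array gave 0 to 3. The 6 calls for TSA in HCT116 became 2 without the filter and 0 without the variance trend, and 3 to 6 when 1 array was left out. The 0 calls for 5-aza-dC in RKO became 3 without both doubtful RKO arrays, with 0 to 1 when 1 array was left out. For the line difference in the 5-aza-dC effect the count went from 0 to 2 without both doubtful RKO arrays, with 0 to 1 in the fits without 1 array. For the line difference in the TSA effect it went from 2 to 1 with a floor of 100 and without both doubtful RKO arrays, and to 0 without the filter and without the variance trend, with 0 to 3 in the fits without 1 array. The 18 calls between the lines became 17 to 18 when 1 array was left out. The CCND3 line difference was reversed on probe set 1562028_at (0.92 against -0.97). The cause of these changes was not tested. Signals near the floor of 50, as for CCND2 in HCT116 and CDKN2A in control RKO, bound the size of a fold. No paired analysis was possible because all arrays carry replicate number 1, so no replicate block could be fitted. The pairs of arrays that differ in 1 drug alone were used for counts of direction only.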
